A study of Homo sapiens with 4 samples.

Results

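The proteasome genes of HCT116 cells were followed after treatment with HJ-23. HCT116 is an established human colorectal carcinoma line, labelled WT for genotype. Cells of the HJ-23 group received 30 µM HJ-23 for 24 hours, and cells of the DMSO group received 0.1% DMSO, the solvent, for 24 hours. Each group had 2 RNA-seq libraries, and whether a group's libraries represent separate cultures is not in the labels. The p-values therefore rest on a spread between libraries that may be technical. The submitters describe HJ-23 as derived from piperine, and the sources used here give no structure for it. The treatment field of both HJ-23 samples names HJ-25. HJ-23, the name in their titles and in the design text, is used here. The genes are the protein-coding genes with a symbol of the form PSMA to PSMG followed by a number and with 10 or more counts in 2 or more of the 4 libraries. This rule gave 46 genes of the 20263 in the count tables and uses no difference between the groups.

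The proteasome degrades proteins marked with ubiquitin. Its barrel, the 20S core, is built from rings of alpha subunits, which gate the entrance, and rings of beta subunits, a few of which cut peptide bonds. The 19S regulatory particle binds the barrel, recognises and removes ubiquitin, and unfolds the substrate with a ring of ATPases. Interferons induce an alternative set of catalytic beta subunits that replace the constitutive ones and form the immunoproteasome, which favours peptides suited to presentation on class I molecules. When proteasome activity is blocked, the transcription factor NFE2L1 (NRF1) raises the transcription of most subunit genes together, a response known from several human cell lines.

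By structure the 46 genes comprised 7 alpha and 7 constitutive beta subunits of the core, 3 immunoproteasome subunits, 6 ATPases and 11 non-ATPase subunits of the 19S particle, 5 genes for other activators and an inhibitor, and 7 assembly chaperones. Of 48 matching symbols in the tables, the other two fell below the count minimum. PSMA8, the testis alpha subunit, had 4 counts in DMSO replicate 1 and 0 in the other libraries, and PSMB11, the thymus beta subunit, had 2 counts in DMSO replicate 1 and 0 in the others. No fold change is given for either. All 46 genes passed the filter of the edgeR fit.

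Total counts were 34406649 and 34831207 in HJ-23 replicates 1 and 2, and 31120459 and 29769568 in DMSO replicates 1 and 2. Levels are given in CPM, which are counts scaled to the TMM-adjusted size of each library. Epithelial markers were abundant, with EPCAM, KRT8, KRT18, KRT19 and CDH1 between 73.7 and 2489 CPM, while VIL1 was at most 0.129 CPM. Leukocytes express immunoproteasome genes strongly, so their markers were measured as well. The 6 leukocyte markers summed to 2.34 and 2.44 CPM in HJ-23 libraries and to 1.71 and 2.05 CPM in DMSO libraries, and PTPRC and CD3E were at 0 in all 4. Of the fibroblast and endothelial markers, COL1A1 stood between 55.1 and 63.3 CPM, COL1A2, DCN and LUM were at 0 in all 4 libraries, and VWF was the highest other, at most 1.25 CPM. In bulk RNA, fewer cells of a type and less RNA per cell cannot be told apart.

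No proteasome gene passed the test between HJ-23 and DMSO cells. With edgeR's quasi-likelihood test and Benjamini-Hochberg adjustment over 14062 genes, 0 of the 46 genes passed an adjusted p of 0.05, against 0.0853% of all genes tested, or 12 genes. At an unadjusted p below 0.05 the count was also 0, against 12.0% of all genes tested, and with DESeq2's adjusted p it was 0, against 2.31%. At an unadjusted p below 0.05, DESeq2 counted 1 gene of the 46, PSMD1. The edgeR fit counted 1 with a replicate block and 3 with a correction for GC content and transcript length. The shares of all genes at that threshold in these fits were not computed. The smallest adjusted p among the 46 was 0.463 (edgeR), for PSMD1. Log2 fold changes of HJ-23 over DMSO ran from -0.59 for PSMD1 to 0.57 for PSMB8, with 28 positive and 18 negative and a median of 0.070. That median became -0.055 when HJ-23 replicate 2 was left out and 0.075 when HJ-23 replicate 1 was. It was 0.0077 when DMSO replicate 1 was left out and 0.029 when DMSO replicate 2 was. Over all genes tested it was 0.0086.

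The 95% intervals cover the spread between these 4 libraries only and are not adjusted for the number of genes. Because a group's libraries may not be separate cultures, they do not bound the effect of HJ-23 itself. For 42 of the 46 genes the 95% interval of the log2 fold change lay within 1 in both directions, that is within a doubling or a halving, against 72.6% of all genes tested. The exceptions were PSMB8, PSMB10, PSMD1 and PSME3. Among genes averaging 10 CPM or more, the share was 95.5% over 44 of the 46 and 85.8% over all such genes. The median size of the log2 fold change, sign left out, was 0.16 over the 46 genes and 0.22 over all genes tested. Among genes averaging 10 CPM or more it was 0.15 over 44 of the 46 and 0.20 over all such genes. The groups did not overlap for 14 genes, or 30.4%, against 46.0% of all genes tested. HJ-23 was the higher group for 8 of these, against 24.8% of all genes tested, and the lower one for 6, against 21.2%.

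**Figure D1:**
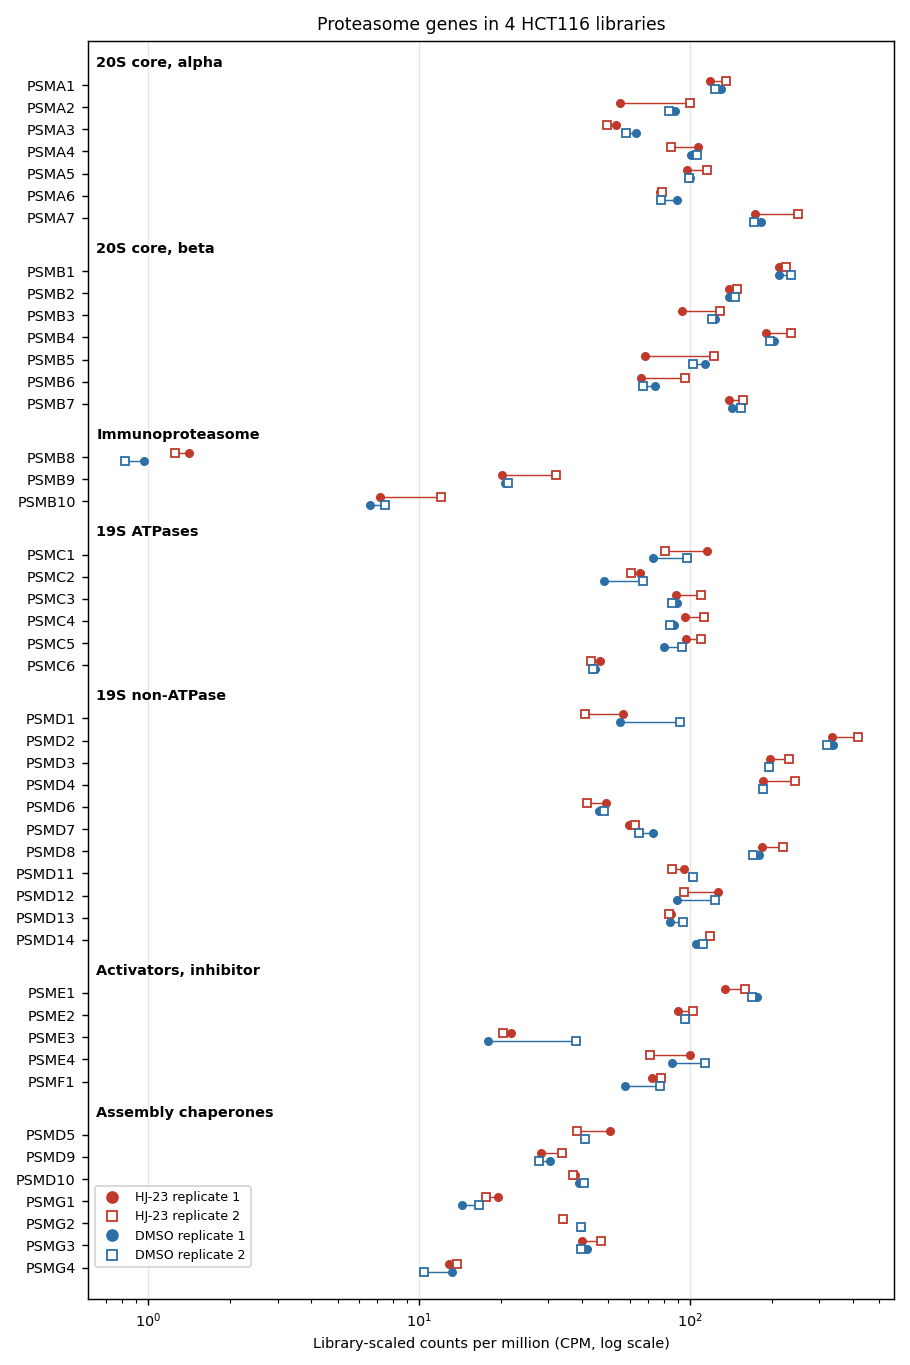
Level of each of the 46 proteasome genes in library-scaled counts (CPM, x axis, log scale), 1 point per library, with HJ-23 drawn above DMSO in each row and a line joining the 2 libraries of a group. PSMB8, PSMB9 and PSMB10 stand to the left of the constitutive core subunits, and the HJ-23 pair and the DMSO pair overlap for 32 genes.

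The alpha subunits form the outer rings of the core and hold its gate closed until a regulator docks. Summed over the 7 genes, alpha subunit transcripts were at 682.1 and 813.1 CPM in HJ-23 libraries and at 755.0 and 720.1 CPM in DMSO libraries. The 2 HJ-23 libraries stood on either side of the DMSO pair. Their log2 fold changes had a median of -0.10, with 3 positive and 4 negative. Leaving out an HJ-23 library gave 0.078 (replicate 1) or -0.123 (replicate 2). Leaving out a DMSO library gave 0.0066 (replicate 1) or -0.0987 (replicate 2). Correcting for GC content and transcript length gave 0.0039.

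PSMA7 (ENSG00000101182), which lies between PSMA4 and PSMA5 in the alpha ring, had the highest log2 fold change of the class. Its level was 173.5 and 249.7 CPM in HJ-23 libraries and 183.1 and 172.0 CPM in DMSO libraries, and only HJ-23 replicate 2 stood above the DMSO pair. The log2 fold change was 0.25 (SE 0.20, 95% interval -0.23 to 0.74, edgeR adjusted p = 0.629), and it was -0.058 with HJ-23 replicate 2 left out. PSMA3 (ENSG00000100567), another subunit of the ring, had the lowest. It was at 53.4 and 49.2 CPM in HJ-23 libraries and at 63.2 and 58.1 CPM in DMSO libraries, so the groups did not overlap. Its log2 fold change was -0.24 (SE 0.15, 95% interval -0.61 to 0.13, edgeR adjusted p = 0.541).

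PSMA2 (ENSG00000106588) had one of the widest gaps between replicates, with 55.2 and 99.8 CPM in HJ-23 libraries and 88.3 and 83.6 CPM in DMSO libraries. A readthrough gene that joins PSMA2 exons to a neighbouring gene, ENSG00000256646, had 657 and 8 counts in HJ-23 libraries and 7 and 0 counts in DMSO libraries. The readthrough gene was thus high in the HJ-23 library in which PSMA2 was low. Summed, the 2 genes were at 73.8 and 100.1 CPM in HJ-23 libraries and at 88.6 and 83.6 CPM in DMSO libraries. How the authors' counting divided reads between them was not tested, and the PSMA2 value is uncertain for that reason. PSMA1, PSMA6, PSMB10 and PSMD9 also have a readthrough gene in the tables. For PSMA6 it had 746 and 305 counts in HJ-23 libraries and 457 and 395 counts in DMSO libraries.

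The constitutive beta subunits form the inner rings, and PSMB5, PSMB6 and PSMB7 carry the chymotrypsin-like, caspase-like and trypsin-like activities. Summed over the 7 genes they were at 909.8 and 1116 CPM in HJ-23 libraries and at 1012 and 1024 CPM in DMSO libraries. Their median was a log2 fold change of -0.0043, with 3 positive and 4 negative. All 7 genes overlapped between the groups, while 46.0% of all genes tested did not overlap. All 7 were higher in HJ-23 replicate 2 than in HJ-23 replicate 1, as were 7062 of the 14062 genes tested. Without HJ-23 replicate 1 the median was 0.061, and without HJ-23 replicate 2 it was -0.115, while DMSO replicates left out in turn gave -0.057 and 0.025.

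PSMB5 (ENSG00000100804) had the lowest log2 fold change of the constitutive beta class. It was at 68.1 and 122.5 CPM in HJ-23 libraries and at 113.2 and 102.3 CPM in DMSO libraries, so the HJ-23 pair straddled the DMSO pair. The log2 fold change was -0.18 (SE 0.28, 95% interval -0.87 to 0.51, edgeR adjusted p = 0.822), and it was 0.17 with HJ-23 replicate 1 left out. PSMB6 (ENSG00000142507) had the highest of the class. It was at 65.7 and 95.7 CPM in HJ-23 libraries and at 74.2 and 67.2 CPM in DMSO libraries, with a log2 fold change of 0.19 (SE 0.21, 95% interval -0.32 to 0.70, edgeR adjusted p = 0.734). With HJ-23 replicate 2 left out it was -0.13. PSMB7 (ENSG00000136930) differed least among the catalytic subunits. It was at 139.2 and 156.4 CPM in HJ-23 libraries and at 142.7 and 153.8 CPM in DMSO libraries, with a log2 fold change of -0.0043 (SE 0.14, 95% interval -0.35 to 0.34).

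The immunoproteasome subunits PSMB8, PSMB9 and PSMB10 take the places of PSMB5, PSMB6 and PSMB7. Stretches around the starts of a few of these genes are printed because the contrast between interferon-induced and constitutive subunits is built into the choice of genes. Each holds 250 bases before and 50 bases after a transcript start, from RefSeq on build GRCh38.p14, written 5′ to 3′ on the gene's strand. The windows are chr6:32843998-32844297 on the minus strand for PSMB8, chr6:32853942-32854241 on the plus strand for PSMB9 and chr16:67936801-67937100 on the minus strand for PSMB10. For PSME2, an interferon-induced activator gene, the window is chr14:24146561-24146860 on the minus strand, and for PSMB5, the constitutive counterpart of PSMB8, it is chr14:23034851-23035150 on the minus strand. Capitals mark GAAANNGAAA (a core of the interferon-stimulated response element), TTCNNNGAA (the gamma-activated sequence) or TGACNNNGC (a core of the antioxidant element bound by NFE2L1 and NFE2L2 with MAF partners), searched on both strands. For genes with 2 starts in the table, PSMB8 and PSMB5, the start with most matches is shown.
PSMB8: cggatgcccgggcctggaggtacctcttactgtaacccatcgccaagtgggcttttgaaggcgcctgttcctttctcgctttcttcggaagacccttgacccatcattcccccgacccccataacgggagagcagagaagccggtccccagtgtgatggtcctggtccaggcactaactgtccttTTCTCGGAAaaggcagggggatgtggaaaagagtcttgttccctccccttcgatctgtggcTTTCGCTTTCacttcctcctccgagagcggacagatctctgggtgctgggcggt
PSMB9: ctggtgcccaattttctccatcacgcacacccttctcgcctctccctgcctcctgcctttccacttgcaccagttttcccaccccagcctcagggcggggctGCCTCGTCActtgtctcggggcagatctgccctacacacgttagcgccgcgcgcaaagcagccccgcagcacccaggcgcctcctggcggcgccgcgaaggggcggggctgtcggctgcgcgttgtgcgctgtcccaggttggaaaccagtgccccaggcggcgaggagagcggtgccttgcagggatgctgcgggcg
PSMB10: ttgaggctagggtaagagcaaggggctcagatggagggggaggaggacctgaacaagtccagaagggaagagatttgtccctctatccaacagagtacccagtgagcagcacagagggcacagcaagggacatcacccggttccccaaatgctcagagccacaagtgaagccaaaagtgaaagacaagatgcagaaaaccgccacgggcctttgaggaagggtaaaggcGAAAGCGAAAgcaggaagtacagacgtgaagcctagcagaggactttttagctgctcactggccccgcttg
PSME2: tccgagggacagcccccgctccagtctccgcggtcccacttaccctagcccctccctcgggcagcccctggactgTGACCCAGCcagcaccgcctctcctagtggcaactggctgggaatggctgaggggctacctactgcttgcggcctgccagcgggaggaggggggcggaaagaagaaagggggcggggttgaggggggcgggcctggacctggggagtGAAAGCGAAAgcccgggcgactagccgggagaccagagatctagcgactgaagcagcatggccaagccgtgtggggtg
PSMB5: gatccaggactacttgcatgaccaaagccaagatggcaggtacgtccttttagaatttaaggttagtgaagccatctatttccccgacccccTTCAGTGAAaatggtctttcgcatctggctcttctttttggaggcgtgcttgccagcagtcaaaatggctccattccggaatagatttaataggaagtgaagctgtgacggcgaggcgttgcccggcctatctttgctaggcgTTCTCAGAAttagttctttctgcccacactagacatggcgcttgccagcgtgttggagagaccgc

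PSMB10 and PSME2 hold the same 10 letters, GAAAGCGAAA, shortly before the start, and PSMB8 holds the reverse complement of that sequence, TTTCGCTTTC, across its start. The PSMB9 window held only a TGACNNNGC match, and neither GAAANNGAAA nor TTCNNNGAA. TTCNNNGAA was found in PSMB8 and also in the constitutive PSMB5, as TTCAGTGAA and TTCTCAGAA. The windows of 40 of the 46 genes were in the table. GAAANNGAAA was found for 7 of these 40 genes (PSMA4, PSMB4, PSMB8, PSMB10, PSME1, PSME2 and PSMG4), or 17.5%, and for 4.38% of 27305 genes in the table. TTCNNNGAA was found for 7 of the 40, or 17.5%, and for 9.38% of all genes. TGACNNNGC was found for 15 of the 40, or 37.5%, and for 16.1% of all genes. Counted by window instead, the shares over all 35116 windows were 3.57%, 7.66% and 13.3%. A match describes letters in these windows and is no measurement of binding.

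Immunoproteasome transcripts had the highest log2 fold changes of the 46 genes, and none passed the test. PSMB8 (ENSG00000204264), the counterpart of PSMB5, was barely expressed, with 50 and 43 counts in HJ-23 libraries and 30 and 24 counts in DMSO libraries. That is 1.41 and 1.25 CPM in HJ-23 libraries and 0.97 and 0.82 CPM in DMSO libraries, without overlap between the groups. The log2 fold change was 0.57 (SE 0.33, 95% interval -0.24 to 1.38, edgeR adjusted p = 0.516). PSMB9 (ENSG00000240065), the counterpart of PSMB6, was at 20.2 and 32.1 CPM in HJ-23 libraries and at 20.7 and 21.2 CPM in DMSO libraries. HJ-23 replicate 2 alone stood above the DMSO pair, and the log2 fold change was 0.32 (SE 0.25, 95% interval -0.29 to 0.93, edgeR adjusted p = 0.623). With HJ-23 replicate 2 left out it was -0.076. PSMB10 (ENSG00000205220), the counterpart of PSMB7, was at 7.16 and 12.1 CPM in HJ-23 libraries and at 6.598 and 7.48 CPM in DMSO libraries. Here too HJ-23 replicate 2 stood alone, and the log2 fold change was 0.45 (SE 0.29, 95% interval -0.25 to 1.15, edgeR adjusted p = 0.549).

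The median of the 3 log2 fold changes was 0.45, and without HJ-23 replicate 2 it was 0.000903. The transcripts of PSMB9 and PSMB10 are GC-rich, at 56.1% and 60.1%, and PSMB8 stood at 54.9%, against a median of 50.3% over the 46 genes. The leukocyte markers summed to 2.34 and 2.44 CPM in HJ-23 libraries and to 1.71 and 2.05 CPM in DMSO libraries. Of these sums CD74 alone gave 2.12 and 1.80 CPM in HJ-23 libraries and 1.16 and 1.67 CPM in DMSO libraries. PSMB9 alone exceeded 20 CPM in each library, and which cells gave these transcripts was not tested. PSMB8 and PSMB9 overlap each other, and PSMB9 overlaps the peptide transporter gene TAP1, on opposite strands. The sources used here do not say whether counting used strand, so reads of these genes cannot be told apart with certainty.

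Per kb of transcript, using the principal transcript of each gene in GENCODE release 29, constitutive subunits outweighed their immunoproteasome counterparts in every library. PSMB7 had the highest level, at 142.1 and 159.6 CPM per kb in HJ-23 libraries and 145.7 and 156.9 in DMSO libraries. PSMB6 was at 77.2 and 112.3 CPM per kb in HJ-23 libraries and 87.0 and 78.9 in DMSO libraries, and PSMB5 at 52.7 and 94.7 in HJ-23 libraries and 87.5 and 79.1 in DMSO libraries. PSMB5 and PSMB6 overlapped in their spread, whereas PSMB7 stood above both. PSMB9 followed at 25.9 and 41.1 CPM per kb in HJ-23 libraries and 26.5 and 27.1 in DMSO libraries. PSMB10 was at 5.88 and 9.90 CPM per kb in HJ-23 libraries and 5.42 and 6.15 in DMSO libraries. PSMB8 was lowest, at 1.25 and 1.11 CPM per kb in HJ-23 libraries and 0.86 and 0.73 in DMSO libraries.

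The 3 immunoproteasome genes therefore differed among themselves in level: PSMB9 alone made up 78.4% and 78.9% of their summed level per kb in HJ-23 libraries and 80.8% and 79.8% in DMSO libraries. Relative to its counterpart, PSMB9 stood at 33.5% and 36.6% of PSMB6 in HJ-23 libraries and at 30.4% and 34.4% in DMSO libraries. PSMB10 stood at 4.14% and 6.20% of PSMB7 in HJ-23 libraries and at 3.72% and 3.92% in DMSO libraries. PSMB8 stood at 2.38% and 1.17% of PSMB5 in HJ-23 libraries and at 0.98% and 0.92% in DMSO libraries, and the 2.38% came from the HJ-23 library in which PSMB5 was low. Over all 6 catalytic genes the immunoproteasome share per kb was 10.8% and 12.45% in HJ-23 libraries and 9.28% and 9.75% in DMSO libraries. The share was higher in each HJ-23 library than in either DMSO library, an order that 24.8% of all genes tested showed in their levels. The numerator did not share this order, since the immunoproteasome sum was 33.0 and 52.1 CPM per kb in HJ-23 libraries and 32.7 and 34.0 CPM per kb in DMSO libraries. The constitutive sum was 271.9 and 366.6 CPM per kb in HJ-23 libraries and 320.2 and 314.8 CPM per kb in DMSO libraries. HJ-23 replicate 1 thus had an immunoproteasome sum within the DMSO range and the lowest constitutive sum. The share was not tested.

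**Figure D2:**
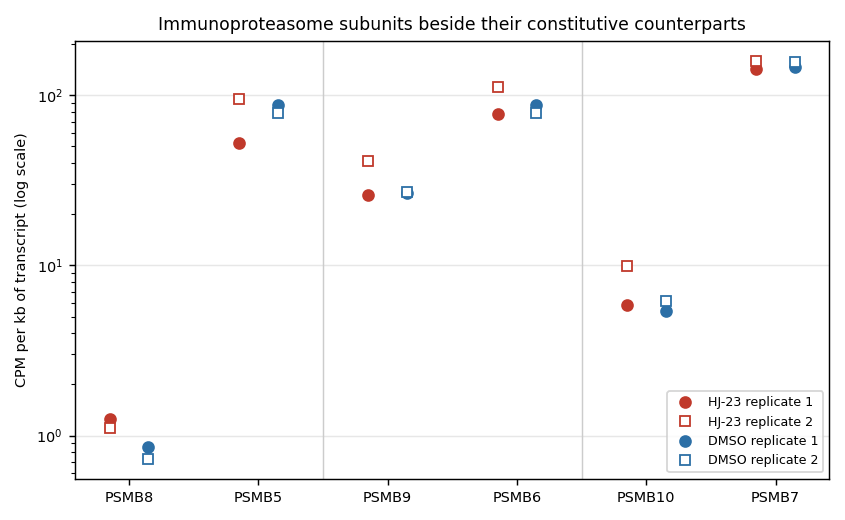
Level of each catalytic subunit in CPM per kb of transcript (y axis, log scale), 1 point per library, with each immunoproteasome subunit left of its constitutive counterpart. PSMB9 stands at 30.4% to 36.6% of PSMB6, while PSMB8 stays at or under 2.38% of PSMB5 and PSMB10 at or under 6.20% of PSMB7.

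The 6 ATPases, PSMC1 to PSMC6, form the ring that unfolds substrates and pushes them into the core. All 6 had positive log2 fold changes, as did 51.0% of all genes tested. They ran from 0.017 for PSMC6 to 0.28 for PSMC4, with a median of 0.19, and 0 passed the test. Some turned negative with 1 library left out. Without HJ-23 replicate 1, PSMC1 was at -0.095 and PSMC6 at -0.058. PSMC3 was at -0.0071 without HJ-23 replicate 2, and PSMC2 at -0.091 without DMSO replicate 1. PSMC4 and PSMC5 stayed positive. Summed, the 6 genes were at 508.7 and 516.5 CPM in HJ-23 libraries and at 423.2 and 471.9 CPM in DMSO libraries, so the sums did not overlap. The sums of the activators and inhibitor, lower in HJ-23, and of the assembly chaperones, higher in HJ-23, did not overlap either. Of all genes tested, 46.0% did not overlap in their levels. The median was 0.086 without DMSO replicate 1 and 0.28 without DMSO replicate 2.

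PSMC4 (ENSG00000013275) was at 96.0 and 112.7 CPM in HJ-23 libraries and at 87.4 and 84.2 CPM in DMSO libraries, without overlap. Its log2 fold change was 0.28 (SE 0.15, 95% interval -0.079 to 0.64, edgeR adjusted p = 0.480), and it was 0.14 with HJ-23 replicate 2 left out. PSMC6 (ENSG00000100519) was at 46.5 and 43.1 CPM in HJ-23 libraries and at 44.7 and 43.9 CPM in DMSO libraries, and its log2 fold change was 0.017 (SE 0.15, 95% interval -0.36 to 0.39). PSMC5 was the other ATPase whose groups did not overlap, with 97.0 and 109.3 CPM in HJ-23 libraries and 80.5 and 93.5 CPM in DMSO libraries. Its gene overlaps FTSJ3 on the opposite strand. PSMC4 and PSMC5 made up 33.3% of the class, while the groups did not overlap for 46.0% of all genes tested.

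The 11 non-ATPase subunits include the scaffold proteins PSMD1 and PSMD2, the ubiquitin receptor PSMD4 and the deubiquitinase PSMD14. Their log2 fold changes were split, 6 positive and 5 negative, with a median of 0.054. Leaving out 1 library gave -0.12 (HJ-23 replicate 1 left out), -0.0069 (HJ-23 replicate 2), -0.084 (DMSO replicate 1) or 0.10 (DMSO replicate 2). Correcting for GC content and length gave -0.010. HJ-23 was above DMSO without overlap for PSMD3, PSMD4, PSMD8 and PSMD14, and below it for PSMD7 and PSMD11, together 54.5% of the class, against 46.0% of all genes tested. Summed, the class was at 1493 and 1641 CPM in HJ-23 libraries and at 1454 and 1510 CPM in DMSO libraries, and the groups overlapped.

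PSMD1 (ENSG00000173692) had the lowest log2 fold change of all 46 genes. It was at 56.4 and 41.1 CPM in HJ-23 libraries and at 55.1 and 92.0 CPM in DMSO libraries, so DMSO replicate 2 stood apart, and HJ-23 replicate 1 was close to DMSO replicate 1. The log2 fold change was -0.59 (SE 0.29, 95% interval -1.30 to 0.11, edgeR adjusted p = 0.463). It was -0.20 without DMSO replicate 2 and -0.92 without DMSO replicate 1. PSMD1 was the 1 gene of the 46 that passed with a crossed replicate block, which was added after seeing the data. PSMD4 (ENSG00000159352) had the highest of the class. It was at 186.7 and 244.0 CPM in HJ-23 libraries and at 183.8 and 185.2 CPM in DMSO libraries. The groups did not overlap, though HJ-23 replicate 1 stood close to the DMSO pair, and the log2 fold change was 0.22 (SE 0.17, 95% interval -0.19 to 0.64, edgeR adjusted p = 0.612). With HJ-23 replicate 2 left out it was -0.0069. PSMD14 had the tightest replicates of the class in HJ-23, at 118.3 and 118.8 CPM, against 105.6 and 111.2 CPM in DMSO libraries (log2 fold change 0.13, 95% interval -0.19 to 0.45).

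Other activators dock on the core in place of the 19S particle. PSME1 and PSME2 encode the interferon-induced activator PA28 alpha and beta, PSME3 its nuclear relative PA28 gamma, and PSME4 the activator PA200. PSMF1 encodes PI31, first described as an inhibitor of the core. Over these 5 genes the median was -0.22 on the log2 scale. Leaving out a DMSO library gave -0.199 (replicate 1) or -0.022 (replicate 2). Leaving out an HJ-23 library gave -0.13 (replicate 1) or -0.12 (replicate 2). Summed, they were at 418.8 and 431.6 CPM in HJ-23 libraries and at 433.5 and 494.2 CPM in DMSO libraries, without overlap.

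The partners PSME1 and PSME2, which assemble into 1 ring, had different values. PSME1 (ENSG00000092010) was at 134.5 and 159.6 CPM in HJ-23 libraries and at 176.1 and 168.8 CPM in DMSO libraries, without overlap, and its log2 fold change was -0.23 (SE 0.15, 95% interval -0.59 to 0.13, edgeR adjusted p = 0.551). PSME2 (ENSG00000100911) was at 90.2 and 102.4 CPM in HJ-23 libraries and at 96.1 and 96.1 CPM in DMSO libraries, with a log2 fold change of 0.0022 (SE 0.14, 95% interval -0.34 to 0.35). The difference between the 2 genes was not tested.

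PSME3 (ENSG00000131467) was at 21.8 and 20.4 CPM in HJ-23 libraries and at 18.0 and 37.9 CPM in DMSO libraries, the widest gap between replicates among the 46 genes. Its log2 fold change was -0.40 (SE 0.35, 95% interval -1.26 to 0.45, edgeR adjusted p = 0.654), and it was 0.21 without DMSO replicate 2. PSME4 (ENSG00000068878) was at 99.99 and 71.0 CPM in HJ-23 libraries and at 85.6 and 113.6 CPM in DMSO libraries, with a log2 fold change of -0.22 (SE 0.23). PSMF1 (ENSG00000125818) was at 72.3 and 78.2 CPM in HJ-23 libraries and at 57.6 and 77.8 CPM in DMSO libraries, with a log2 fold change of 0.15 (SE 0.19). Groups overlapped for PSME3, PSME4 and PSMF1.

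Assembly chaperones build the particle and leave it. PSMG1 to PSMG4 guide the alpha ring, and PSMD5, PSMD9 and PSMD10 each hold part of the ATPase ring. Over the 7 genes the median was 0.094 on the log2 scale, with 5 positive and 2 negative. Leaving out 1 library gave 0.16 (HJ-23 replicate 1 left out), -0.050 (HJ-23 replicate 2), 0.135 (DMSO replicate 1) or 0.0020 (DMSO replicate 2). Correcting for GC content and length gave 0.035. Their summed level was close in all libraries, at 222.8 and 221.2 CPM in HJ-23 and at 218.5 and 215.7 CPM in DMSO, without overlap.

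PSMG2 (ENSG00000128789), which pairs with PSMG1, was at 33.9 and 33.9 CPM in HJ-23 libraries and at 39.4 and 39.7 CPM in DMSO libraries. Replicates were within 1.01-fold in both groups, and the log2 fold change was -0.22 (SE 0.15, 95% interval -0.60 to 0.15, edgeR adjusted p = 0.577). PSMG1 (ENSG00000183527) was at 19.5 and 17.6 CPM in HJ-23 libraries and at 14.5 and 16.7 CPM in DMSO libraries, with a log2 fold change of 0.26 (SE 0.18, 95% interval -0.18 to 0.69, edgeR adjusted p = 0.580). The partners thus lay on opposite sides of the DMSO libraries, and this difference was not tested. PSMG3 was at 39.9 and 46.8 CPM in HJ-23 libraries and at 41.8 and 39.5 CPM in DMSO libraries, and PSMG4 at 12.8 and 13.8 CPM in HJ-23 libraries and 13.3 and 10.5 CPM in DMSO libraries. Among the base chaperones, PSMD5 was at 50.9 and 38.3 CPM in HJ-23 libraries and at 40.5 and 40.9 CPM in DMSO libraries. PSMD9 was at 28.1 and 33.8 CPM in HJ-23 libraries and at 30.4 and 27.7 CPM in DMSO libraries. PSMD10 (gankyrin) was at 37.6 and 37.0 CPM in HJ-23 libraries and at 38.8 and 40.7 CPM in DMSO libraries, the only base chaperone whose groups did not overlap. With PSMG1 and PSMG2 it made up 42.9% of the class, against 46.0% of all genes tested without overlap.

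**Figure D3:**
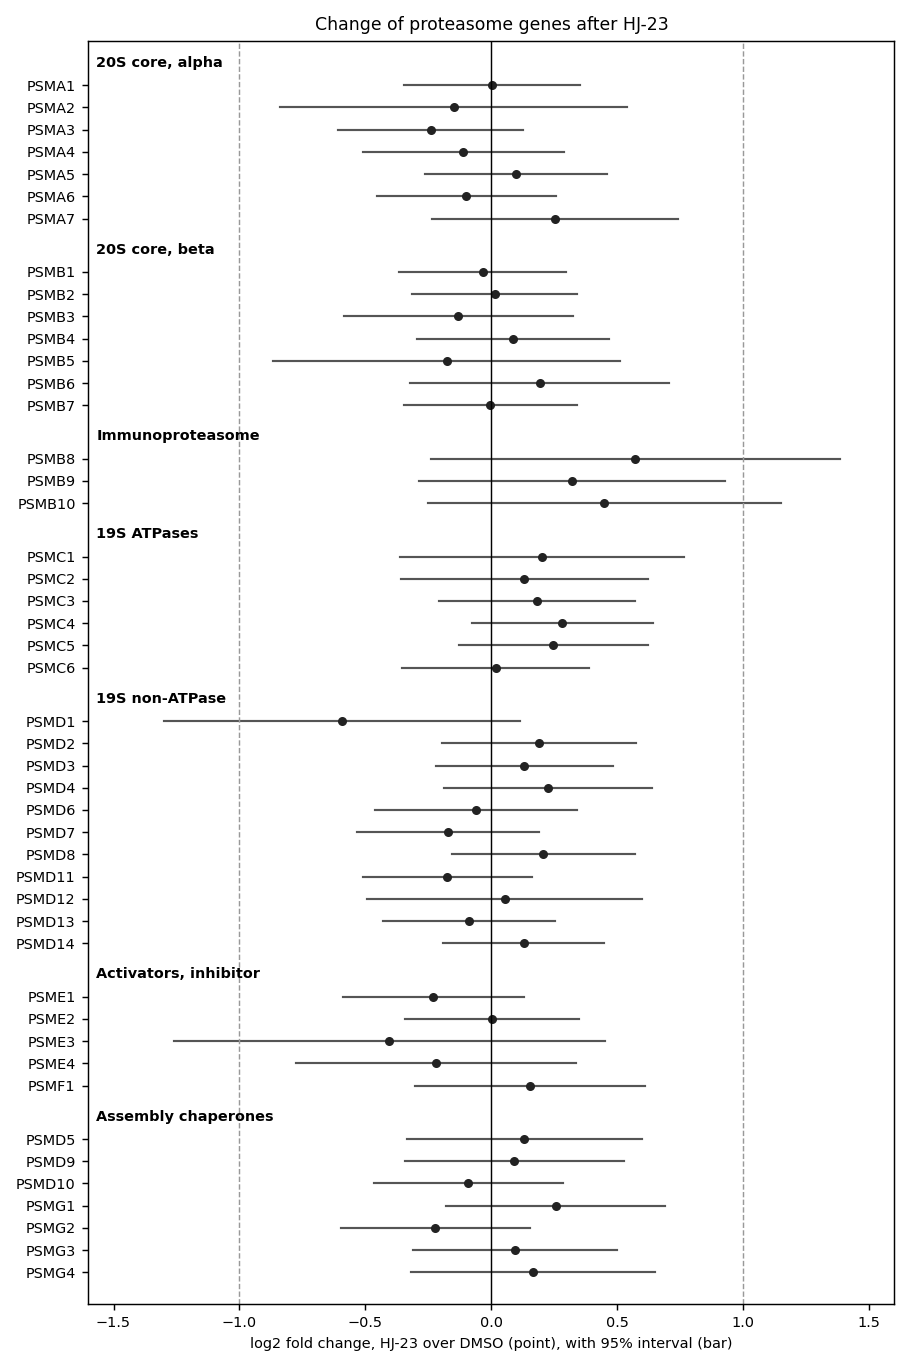
Log2 fold change of HJ-23 over DMSO (points) with its 95% interval (bars) for the 46 proteasome genes by structural class, with dashed lines at a doubling and a halving. Every interval includes 0, and 42 of the 46 lie between the dashed lines.

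The groups' libraries were not alike among themselves. For 4 of the 46 genes (PSMA2, PSMB5, PSMB9 and PSMB10) the 2 HJ-23 libraries differed 1.5-fold or more, and for 2 genes (PSMD1 and PSME3) the 2 DMSO libraries did. All 6 were singled out on seeing their values. The fold change between groups exceeded the larger replicate fold for 10 of the 46. None of these counts was made over all genes tested, so whether they are high or low is not known. Transcript GC content moved with the gap between HJ-23 replicates: of the 23 genes at or above the median GC content, 19 were higher in HJ-23 replicate 2 than in replicate 1, and of the 23 below it, 10 were. Over the 46 genes Spearman's rho between GC content and the log2 ratio of HJ-23 replicate 2 to replicate 1 was 0.55, a description of points that share the same 2 libraries, and over all genes tested it was 0.62.

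GC content also moved with the difference between groups. Log2 fold changes had a median of 0.17 over the 23 genes with higher GC content and -0.0043 over the 23 with lower GC content. Spearman's rho between GC content and the log2 fold change was 0.45 over the 46 genes and 0.38 over all genes tested. A further fit used a smooth GC and length correction per library. With it the immunoproteasome median was 0.22, that of the ATPases 0.17 and that of all 46 genes 0.041, and 0 of the 46 passed.

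**Figure D4:**
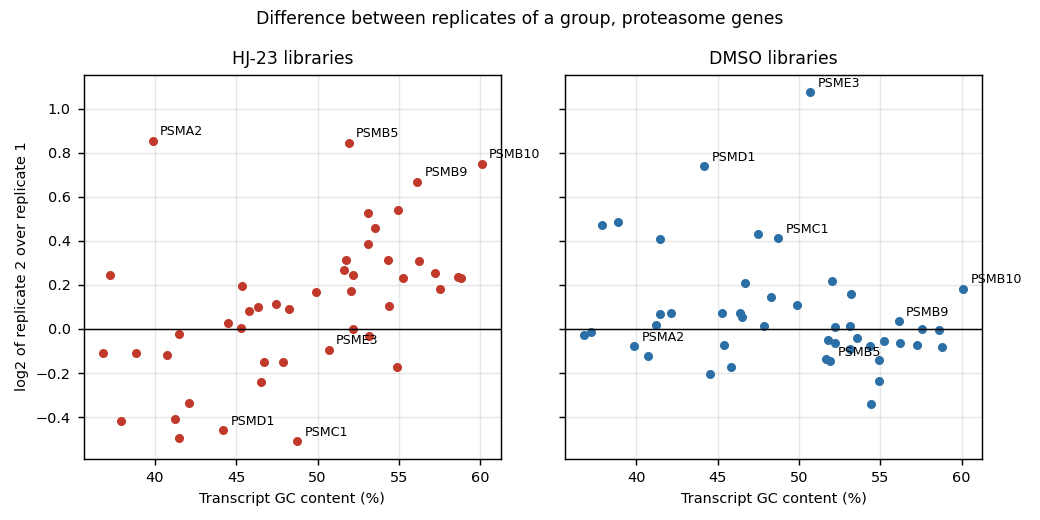
Log2 ratio of replicate 2 to replicate 1 (y axis) against transcript GC content (x axis, percent) for the 46 proteasome genes, in the HJ-23 libraries (left) and the DMSO libraries (right). In HJ-23, 19 of the 23 genes with higher GC content lie above 0, and 10 of the 23 with lower GC content do. PSMA2, with a GC content of 39.9%, is the highest, followed by PSMB5, PSMB10 and PSMB9. In DMSO, PSME3 and PSMD1 stand apart.

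Proteins that complete or serve the particle under other symbols were taken as a list of 10, all of them tested. In that list 0 passed the test and 2 had an unadjusted p below 0.05, ADRM1 and AKIRIN2, against 12.0% of all genes tested. The list's median was 0.076 on the log2 scale, with 7 positive, or 70%, against 51.0% of all genes tested. ADRM1, a ubiquitin receptor of the 19S base, was at 170.7 and 214.6 CPM in HJ-23 libraries and at 146.3 and 135.3 CPM in DMSO libraries. Its groups did not overlap, and the log2 fold change was 0.45 (SE 0.16, 95% interval 0.054 to 0.85, edgeR adjusted p = 0.377). It was 0.25 with HJ-23 replicate 2 left out and 0.21 after the GC and length correction. AKIRIN2, which carries proteasomes into the nucleus, was at 70.2 and 73.6 CPM in HJ-23 libraries and at 54.3 and 51.8 CPM in DMSO libraries, without overlap, with a log2 fold change of 0.44 (SE 0.14, 95% interval 0.093 to 0.78, edgeR adjusted p = 0.353). POMP, the maturation factor of the core, was at 69.2 and 74.0 CPM in HJ-23 libraries and at 75.2 and 70.6 CPM in DMSO libraries, with a log2 fold change of -0.026 (SE 0.14).

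The transcription factor NFE2L1 is made in the endoplasmic reticulum membrane, extracted by VCP, deglycosylated by NGLY1 and cut by DDI2 before it acts on subunit genes. Of 12 genes of this route and its MAF partners, 0 passed the test and 1, NFE2L1 itself, had an unadjusted p below 0.05, or 8.33% against 12.0% of all genes tested. NFE2L1 was at 318.4 and 478.2 CPM in HJ-23 libraries and at 279.5 and 231.9 CPM in DMSO libraries, and the groups did not overlap. Its log2 fold change was 0.64 (SE 0.23, 95% interval 0.087 to 1.19, edgeR adjusted p = 0.371). Leaving out an HJ-23 library gave 0.88 (replicate 1 left out) or 0.29 (replicate 2). NFE2L2 (NRF2), the antioxidant relative, was at 41.7 and 46.1 CPM in HJ-23 libraries and at 27.9 and 38.4 CPM in DMSO libraries, with a log2 fold change of 0.41 (SE 0.21, edgeR adjusted p = 0.475). Leaving out a DMSO library gave 0.19 (replicate 1 left out) or 0.63 (replicate 2). MAFF, a small MAF partner, was at 15.7 and 88.9 CPM in HJ-23 libraries and at 17.6 and 19.8 CPM in DMSO libraries. Only HJ-23 replicate 2 stood high, and the interval of its log2 fold change ran from -0.71 to 3.68. MAFF had a log2 fold change of 1.48, and of -0.27 with HJ-23 replicate 2 left out. The processing genes VCP, NGLY1 and DDI2 had log2 fold changes of 0.053, -0.088 and -0.21.

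Of 17 ubiquitin genes, activating enzymes, shuttles and receptors, 0 passed the test and 3 had an unadjusted p below 0.05, or 17.6%, among them RAD23B and ZFAND2A, against 12.0% of all genes tested. The list's median was 0.12 on the log2 scale, with 12 positive, or 70.6%, against 51.0% of all genes tested. ZFAND2A, a proteasome-associated zinc finger protein known as AIRAP, was at 11.5 and 12.3 CPM in HJ-23 libraries and at 6.89 and 8.95 CPM in DMSO libraries, without overlap. Its log2 fold change was 0.59 (SE 0.21, edgeR adjusted p = 0.370). RAD23B, a shuttle that brings ubiquitinated proteins to the proteasome, had a log2 fold change of 0.32 (edgeR adjusted p = 0.415) and was chosen after its values were seen.

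Of 15 genes of interferon signalling and class I presentation, the pathway the immunoproteasome serves, 0 passed the test and 3 had an unadjusted p below 0.05, or 20%, namely IRF1, NLRC5 and TAP1, against 12.0% of all genes tested. The list's median was 0.18 on the log2 scale, with 12 positive, or 80%, against 51.0% of all genes tested. Its median transcript GC content was 54.8%, against 50.3% over all genes tested, and log2 fold changes moved with GC content. IRF1, a transcription factor that acts on immunoproteasome genes, was at 98.5 and 109.7 CPM in HJ-23 libraries and at 49.4 and 45.8 CPM in DMSO libraries, without overlap. Its log2 fold change was 1.13 (SE 0.15, 95% interval 0.77 to 1.49, edgeR adjusted p = 0.102), and it passed with DESeq2, with the GC and length correction, with a replicate block and without DMSO replicate 1. TAP1, whose gene overlaps PSMB9, was at 143.1 and 191.0 CPM in HJ-23 libraries and at 128.4 and 115.5 CPM in DMSO libraries (log2 fold change 0.45, edgeR adjusted p = 0.406). NLRC5, the activator of class I genes, had a log2 fold change of 0.49 (edgeR adjusted p = 0.399). TAP1 and NLRC5 were chosen after their values were seen. B2M, the class I light chain, was at 358.0 and 314.5 CPM in HJ-23 libraries and at 347.8 and 105.4 CPM in DMSO libraries, so DMSO replicate 2 alone was low, and its log2 fold change was 0.57 (SE 0.58). It was -0.073 with DMSO replicate 2 left out, and 1.67 with DMSO replicate 1 left out, where B2M passed the test against the low library alone.

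**Figure D5:**
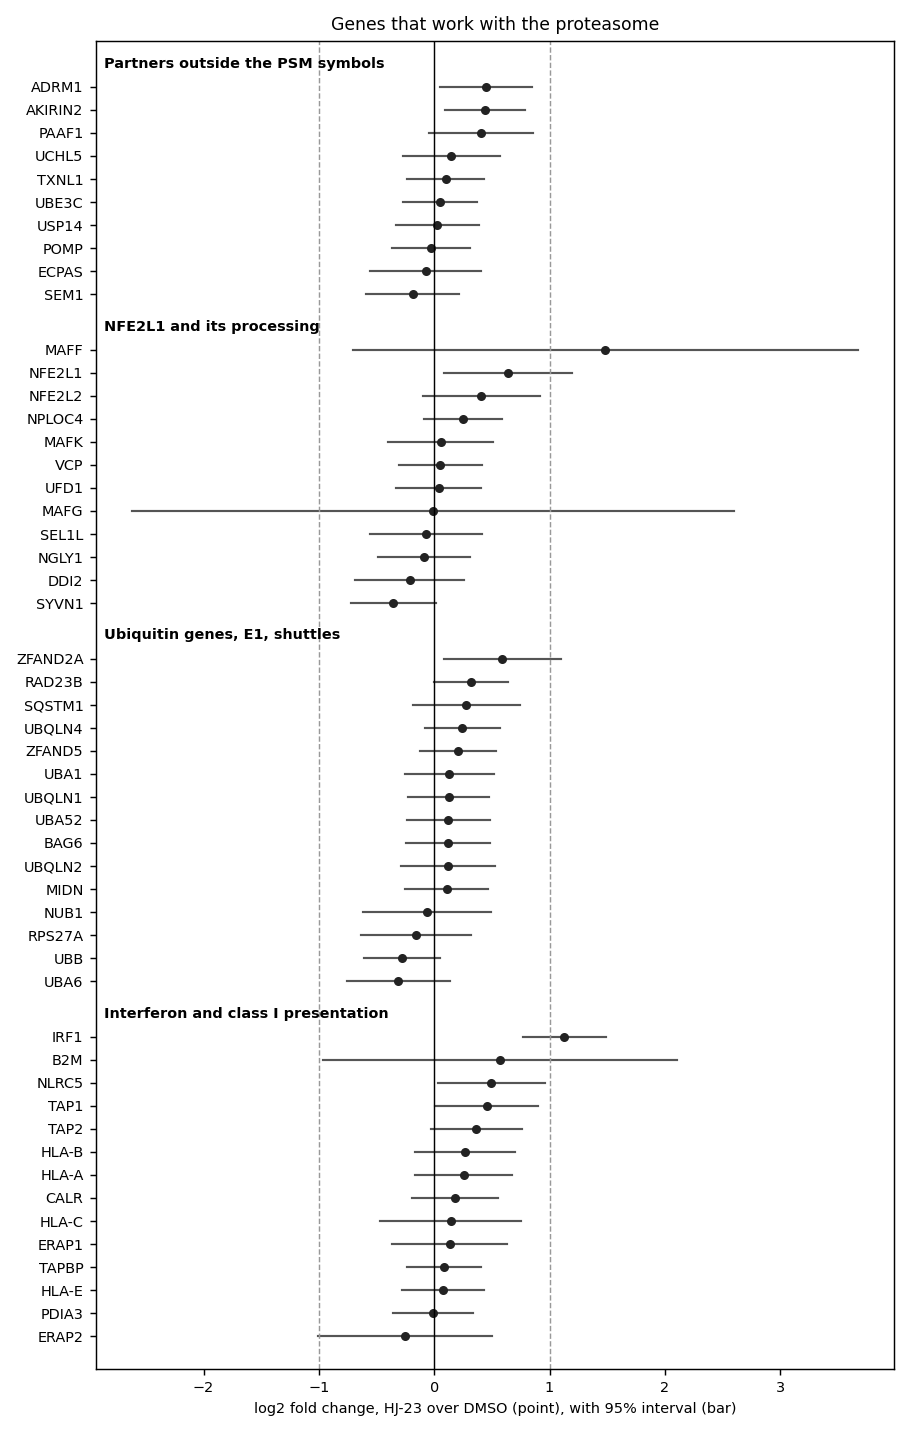
Log2 fold change of HJ-23 over DMSO (points) with its 95% interval (bars) for genes of 4 lists that work with the proteasome, without the genes not reported here. IRF1 at 1.13 has the interval farthest above 0, NFE2L1 stands at 0.64, and MAFF has a wide interval, from -0.71 to 3.68.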

How the data were processed

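RNA-seq of 2 HJ-23 and 2 DMSO libraries of HCT116 cells was deposited as 1 table of whole-number counts per library, which the authors deposited without normalization, as the values show. The tools named, per the submitters' processing notes, are RSEM, HISAT2, Trimmomatic, FastQC and bedtools, with no role or version. Genome build, strand and counter settings were not given in the sources used here. Groups came from the sample titles. Among values of 1 to 8 counts, 69.6% to 72.3% per library were even, against 49.7% to 50.8% above 50 counts, as when each mate of a read pair adds 1 count. No 2 libraries were the same: the chi-square of each pair was at least 37.9 times its degrees of freedom.

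The counts were modelled in R 4.3.3 by edgeR 4.0.16 (TMM factors from 0.983 to 1.03, filterByExpr, robust dispersions, quasi-likelihood F-test), with Benjamini-Hochberg adjustment over 14062 genes. Calls used an adjusted p of 0.05, with 2 residual degrees of freedom. Standard errors were obtained from each log2 fold change and its F statistic, and 95% intervals use the t quantile at the test's degrees of freedom, not adjusted for the number of genes. Intervals cover the spread between these libraries only. The fit was also run on simulated counts. These held no GC-linked differences between libraries, so that run cannot show how the fit behaves under such differences. Alternatives were DESeq2 1.42.0, other scalings and filters, a replicate block, a GC and length correction (mgcv 1.9.3) and leaving out each library.

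A gene name table gave symbols to 20148 identifiers and GENCODE 29 to 76 more, leaving 39 without. GC content and length are those of the principal transcript in GENCODE 29. Of the 46 genes, 20 overlap another counted gene, so their values are uncertain where reads were shared. Gene classes and lists were chosen with earlier results of these data known. Values in every library were given, by rule, for catalytic subunits, activators, chaperones and the highest and lowest of the other classes, and of each other list for the 2 largest log2 fold changes at 5 CPM or more, with POMP, NFE2L1, NFE2L2 and IRF1. Any other gene was picked on seeing its values. Some genes of these lists are not reported here.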

Additional observations from a re-analysis of the deposited data

How the results depend on the processing

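Each of the 46 proteasome genes stayed outside the adjusted threshold under every alternative except a crossed replicate block. Otherwise their smallest adjusted p lay between 0.133, without DMSO replicate 1, and 1.0, without DMSO replicate 2. The sign of the log2 fold change held under all these alternatives for 15 genes and changed under at least 1 for 31, for 16 of them without HJ-23 replicate 2. Over all genes, 8 were called higher and 4 lower; these counts were 22 and 13 with the GC and length correction, 18 and 13 without a filter, 161 and 150 with DESeq2, and 136 and 158 with a replicate block, which changed no call among the 46. Leaving out 1 library gave 0 to 112 higher and 0 to 161 lower, with 0 in both directions when either HJ-23 library was left out. Deviations from the group means correlated at -0.182 between equal replicate numbers. With 2 libraries per group this is 1 value, the same for both pairs by construction. It cannot show whether equal numbers share a culture or day, which the labels do not say. A crossed replicate block, added after seeing the data, called 454 higher and 512 lower. PSMD1, lower, was the 1 gene of the 46 among them.

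Class medians of log2 fold changes shifted by more than their spread between replicates as follows. Core alpha subunits were at -0.10, at -0.0741 with library totals and 0.00392 with the GC and length correction. Assembly chaperones were at 0.0943, at 0.0793 with DESeq2's size factors, 0.118 with library totals, 0.0345 with the GC and length correction and 0.0801 with DESeq2. Leaving out 1 library gave -0.123 to 0.0776 for alpha subunits, -0.115 to 0.0614 for constitutive beta subunits, 0.000903 to 0.597 for the immunoproteasome, 0.0861 to 0.283 for ATPases, -0.124 to 0.104 for non-ATPase subunits, -0.199 to -0.0216 for activators and inhibitor, -0.0496 to 0.159 for chaperones and -0.0554 to 0.0747 for all 46. Without division by transcript length the mean immunoproteasome share was 10.2% in HJ-23 libraries and 8.13% in DMSO libraries, against 11.6% and 9.51% per kb. The cause of these shifts was not tested.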
